A study of Caenorhabditis elegans with 18 samples.

Results

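Ionotropic glutamate receptors are ion channels that open when glutamate binds and carry most fast excitatory signalling between neurons. Each channel is built from several subunits, and in the nematode Caenorhabditis elegans the subunits expressed in command interneurons set the response to touch and the direction of crawling. The genes described here are the non-NMDA subunits glr-1 to glr-7 and the NMDA-type subunits nmr-1 and nmr-2. They were taken by name, as the loci whose reference gene is exactly 1 of these symbols, and make up 9 of the 20574 genes named singly in the deposited lists. Each list also names splicing events of these genes, 56 of 31622 distinct events over all libraries.

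RNA was sequenced from embryos of 6 strains, with 3 libraries each. Listed with their genotypes, the strains were uaf-1(n4588), the double mutants uaf-1(n4588); rbm-5(n5119) and uaf-1(n4588); rbm-5(n5132), the single mutants rbm-5(n5119) and rbm-5(n5132), and wild type (N2). The double mutants are called the n5119 and the n5132 double mutant below. The embryos were released from adults by bleach, and all strains were grown at the same temperature. The gene uaf-1 encodes the large subunit of U2AF, which recognises the 3′ end of introns, and rbm-5 encodes an RNA-binding protein. The study asks how the rbm-5 protein modifies splicing that depends on U2AF.

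Levels are given in FPKM, which corrects fragment numbers for transcript length and library size, so levels can be set beside each other between genes. Read counts were not used here, so the depth behind each value is unknown. The lists held 53772 to 55828 entries, with 26.7% to 33.7% of them at exactly 0. The rbm-5(n5119) replicate 3 library and the replicate 1 library of the n5119 double mutant stood apart, with the most entries at 0. All 6 replicate 1 libraries had a larger summed FPKM of transcript starts, at 1251000 to 2073000, than the other 12, at 803900 to 1136000. Each strain has 1 of them. The labels number the libraries but do not say whether they came from separate cultures, so p-values measure only the spread between libraries, which may be technical. The RNA came from whole embryos, so fewer neurons and less RNA per neuron cannot be told apart.

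As a check of the source, adult products were near 0: the yolk gene vit-2 had a median of 0.0345 FPKM and the sperm gene spe-9 one of 0.229 FPKM over 18 libraries. The embryonic transcription factor genes elt-1 and elt-2 had medians of 55.8 and 25.9 FPKM. The pan-neuronal gene unc-119 had a median of 139 FPKM. Not all markers behaved this way. The neuron marker snb-1 was at 0 in all 9 libraries that listed it alone, and the epidermis marker dpy-7 in all 3. The neuron markers rab-3, egl-3 and sbt-1 also had lowest values of 0. Why these markers were listed at 0 was not tested.

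Among the receptor genes glr-1 had the highest level. Its product, GLR-1, is an AMPA-type subunit of the command interneurons. In uaf-1(n4588) embryos glr-1 had 6.20, 5.33 and 6.72 FPKM. In the n5119 double mutant it had 2.44, 4.31 and 9.24 FPKM, and in the n5132 double mutant 8.89, 4.45 and 2.66 FPKM. The rbm-5(n5119) libraries had 7.76, 4.56 and 1.48 FPKM, the rbm-5(n5132) libraries 10.9, 4.36 and 4.29 FPKM, and wild type 7.06, 4.92 and 8.71 FPKM. The strains overlapped throughout, and the lowest of all 18 values was that of rbm-5(n5119) replicate 3.

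By summed transcript starts, the related non-NMDA subunit genes glr-4 and glr-5 came next. The level of glr-4 was 5.06, 2.93 and 2.06 FPKM in uaf-1(n4588). One library stood far above the rest: replicate 2 of the n5132 double mutant had 19.4 FPKM, beside 6.95 and 1.15 FPKM in the other libraries of that strain. In the n5119 double mutant glr-4 had 2.09, 2.02 and 5.12 FPKM. The rbm-5 single mutants ranged from 0.438 to 3.81 FPKM for n5119 and from 3.02 to 4.02 FPKM for n5132, and wild type had 3.55, 1.26 and 2.95 FPKM. The values depend on which end of the transcript is summed: from transcript end events, wild-type replicates 2 and 3 had 4.60 and 9.48 FPKM. For glr-5 the values were 3.05, 2.77 and 2.97 FPKM in uaf-1(n4588). Across the double mutants and the rbm-5 mutants glr-5 ran from 0.423 FPKM in rbm-5(n5119) replicate 3 to 6.10 FPKM in replicate 1 of the n5132 double mutant. Wild type lay within that range, at 3.79, 2.81 and 4.47 FPKM.

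**Figure D1:**
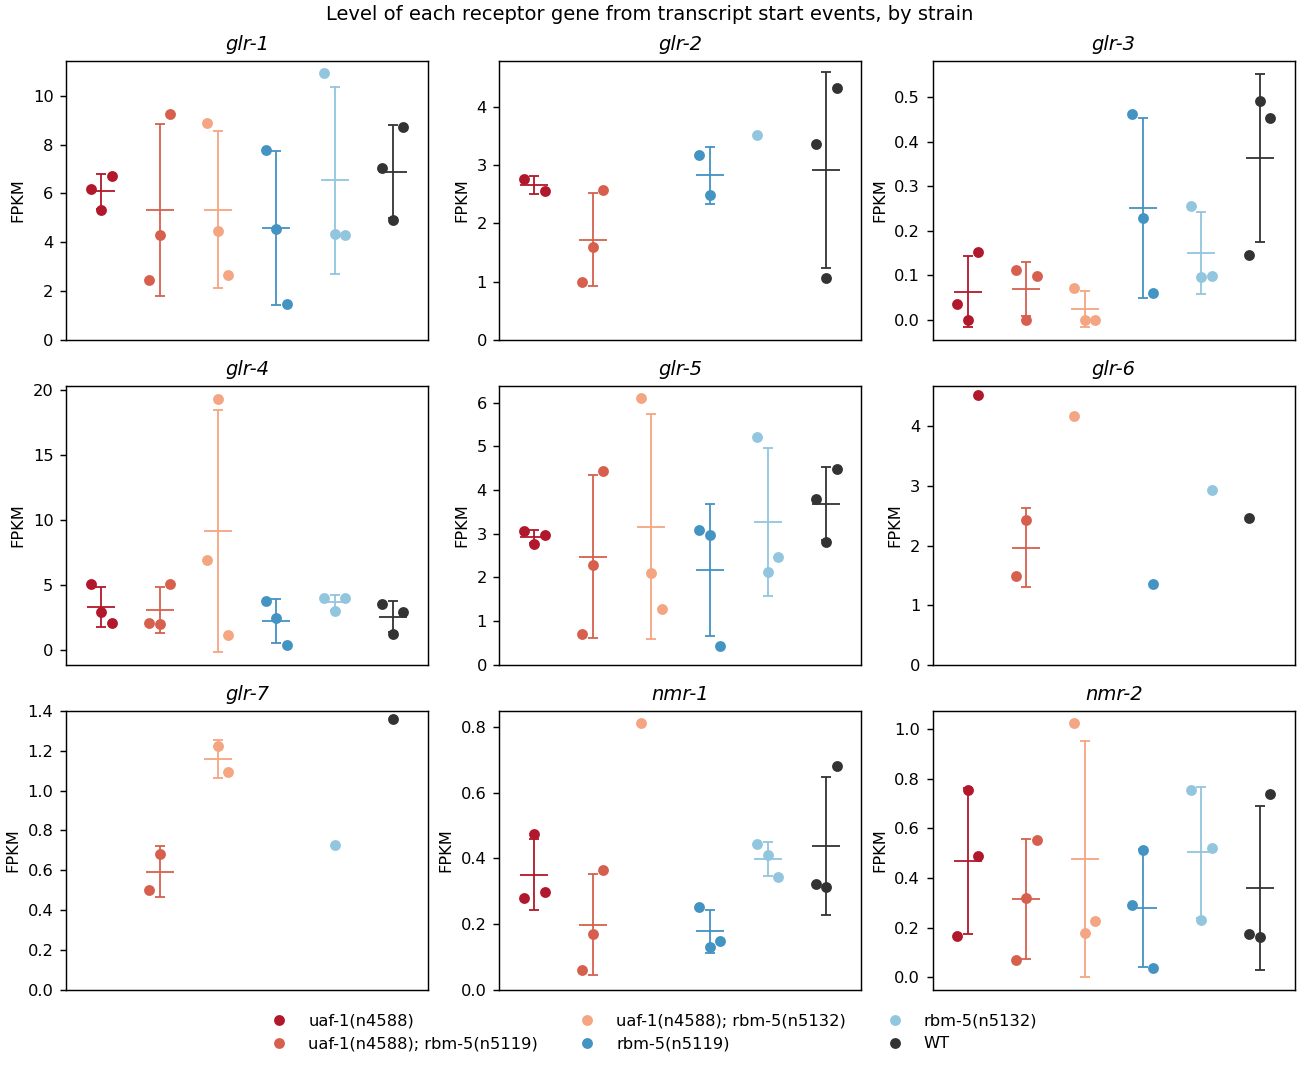
Level of each receptor gene in FPKM (vertical axis, linear, a separate scale per gene) by strain, with 1 point per library in which the locus names the gene alone and a bar for the mean ± SD where a strain has 2 or 3 such libraries. Strains overlap for glr-1, glr-4 and glr-5, and glr-3 runs from 0 to 0.153 FPKM with uaf-1(n4588) and from 0.0609 to 0.491 FPKM without it.

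For glr-2, which encodes the subunit that pairs with GLR-1 in heteromeric channels, the locus named the gene alone in 11 of 18 libraries. In the other 7 it was joined with sls-2.5, a spliced-leader RNA gene. Where listed alone, glr-2 averaged 2.66 ± 0.150 FPKM in uaf-1(n4588) (SD, n = 2) and 1.72 ± 0.794 FPKM in the n5119 double mutant (SD, n = 3). The rbm-5(n5119) libraries averaged 2.83 ± 0.487 FPKM (SD, n = 2), the single rbm-5(n5132) library had 3.51 FPKM, and wild type averaged 2.92 ± 1.68 FPKM (SD, n = 3). The joined loci had 0.518 to 3.38 FPKM. For glr-6, which acts with glr-3 in an interneuron, the gene was named alone in 7 libraries, at 1.35 to 4.52 FPKM, and joined with F41B4.3 in 10. From transcript ends the same 7 libraries had 2.98 to 7.43 FPKM. The gene glr-7, whose known site of expression is the pharyngeal nervous system, was named alone in 6 libraries, at 0.502 to 1.36 FPKM. In 11 libraries it was joined with neighbours, at up to 102.3 FPKM for the whole joined locus, which is no level of glr-7.

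The NMDA-type subunits were at the low end. The level of nmr-1, which encodes the obligatory NMDA subunit, ranged from 0.0602 to 0.811 FPKM over 16 libraries, with a median of 0.316 FPKM. The level of nmr-2 ranged from 0.0375 to 1.02 FPKM over 18 libraries, with a median of 0.305 FPKM. Lowest of all was glr-3, which encodes a kainate-type subunit also known as a cold receptor, with a median of 0.0974 FPKM.

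By median of the summed transcript starts the order was glr-1 at 5.12, glr-4 at 2.99, glr-5 at 2.89, glr-2 at 2.57, glr-6 at 2.46, glr-7 at 0.911, nmr-1 at 0.316, nmr-2 at 0.305 and glr-3 at 0.0974 FPKM. From transcript ends the medians were 4.52 for glr-6, 4.01 for glr-4, 2.89 for glr-5, 2.77 for glr-2, 0.460 for nmr-2 and 0.316 for nmr-1. The order of the middle genes and of the NMDA pair thus depends on the end summed. Within libraries, by starts, glr-1 exceeded glr-4 in 17 of 18. The middle neighbours did not differ beyond their spread, since glr-4 exceeded glr-5 in 10 of 18 libraries. Nor did the NMDA pair, where nmr-1 exceeded nmr-2 in 5 of 16 libraries. The order of glr-2, glr-6 and glr-7 rests on few libraries that name both neighbours alone, such as 4 for glr-2 and glr-6.

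Differences in level between strains were tested with limma on log2(FPKM + 1), a scale that understates changes of low genes. A gene needed at least 2 listing libraries in each strain of a contrast and a mean of at least 1 FPKM. Of the 9 genes, glr-1, glr-4 and glr-5 passed in all 10 contrasts and glr-2 in 4 of them, while glr-3, glr-6, glr-7, nmr-1 and nmr-2 passed in none. None of the 34 tests was past a Benjamini-Hochberg adjusted p of 0.05 over all genes, and none had an unadjusted p under 0.05. The lowest p was 0.198 and the lowest adjusted p 0.623. The share of all genes called was 0.656% for uaf-1(n4588) averaged over the 3 rbm-5 backgrounds and 0.178% for uaf-1(n4588) against wild type. It was 0.136% for the n5119 double mutant against rbm-5(n5119) and 0.0359% for the n5132 double mutant against rbm-5(n5132). Against uaf-1(n4588) it was 0.0244% for the n5119 and 0.0853% for the n5132 double mutant. It was 0.0234% for rbm-5(n5119) and 0.0115% for rbm-5(n5132) against wild type, 0.0279% for rbm-5 mutation averaged and 0.014% for the averaged interaction. The contrasts share libraries, so their results are not independent.

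With uaf-1(n4588) averaged over backgrounds, the log2 difference was -0.06 for glr-1 (SE 0.30), 0.43 for glr-4 (SE 0.38) and -0.08 for glr-5 (SE 0.30), beside a median of -0.03 over 7160 genes. Scaling all libraries to 1 median shifted the gene median by -0.38 to 0.78 over the 10 contrasts. Here it moved that median to -0.28, and glr-1, glr-4 and glr-5 to -0.29, 0.26 and -0.27. The glr-4 value was 0.17 without replicate 2 of the n5132 double mutant, 0.72 without its replicate 3 and 0.26 without rbm-5(n5119) replicate 3. Over the 34 tests the differences ran from -0.70 to 0.75 with standard errors of 0.30 to 0.82. Changes of about that size were not detectable, and larger ones may also have been missed. How large a change had to be was not worked out. The averaged rbm-5 difference was -0.34 for glr-1 (SE 0.32), 0.20 for glr-4 (SE 0.41) and -0.33 for glr-5 (SE 0.32), beside a median of -0.13 over all genes. After scaling these were -0.06, 0.43 and -0.14, beside a median of 0.15.

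The low gene glr-3 was compared separately, by an exact permutation of uaf-1 genotype within rbm-5 backgrounds and with no filter on level, a test added after the data had been seen. It had 0.0344, 0 and 0.153 FPKM in uaf-1(n4588), 0.111, 0 and 0.0973 FPKM in the n5119 double mutant, and 0.0711, 0 and 0 FPKM in the n5132 double mutant. Without the mutation it had 0.463, 0.229 and 0.0609 FPKM in rbm-5(n5119), 0.255, 0.0959 and 0.0975 FPKM in rbm-5(n5132), and 0.146, 0.491 and 0.454 FPKM in wild type. All 4 libraries in which glr-3 was listed at 0 carried uaf-1(n4588), and the ranges with and without the mutation overlapped. The two-sided exact p was 0.0035, which became 0.306 after Benjamini-Hochberg adjustment over 9886 genes, where 6.56% of genes had an unadjusted p under 0.05. The difference therefore did not pass the correction. By the same test the p was 0.794 for nmr-2, at 0.420 ± 0.315 FPKM with and 0.380 ± 0.262 FPKM without uaf-1(n4588) (SD, 9 libraries each).

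Across the libraries glr-1 and glr-5 varied together, and the other receptor genes less so. Across the 18 libraries the log2 levels of glr-1 and glr-5 had a Pearson correlation of 0.96, given as a description because both values of a point come from the same library and its scaling. The 5 genes most like glr-1 among 4180 genes were clik-1 (r = 0.96), glr-5 (r = 0.96), dpf-2 (r = 0.96), M02G9.2 (r = 0.95) and T02C5.1 (r = 0.95). The correlation of glr-1 with glr-4 was 0.50, with nmr-2 0.68 and with glr-3 0.40, and that of glr-3 with glr-4 was -0.17. Summed FPKM of the 6 neuron markers listed in every library (unc-119, unc-13, snt-1, ric-4, egl-3 and sbt-1) correlated with glr-1 at 0.80, with glr-5 at 0.85, with nmr-2 at 0.66, with glr-4 at 0.40 and with glr-3 at 0.17. The sum was lowest in rbm-5(n5119) replicate 3, at 140.3 FPKM, and highest in replicate 1 of the n5132 double mutant, at 491 FPKM. In rbm-5(n5119) replicate 3, glr-1, glr-4, glr-5 and nmr-2 were also each at their lowest of 18 libraries. Other marker sums, over the markers each library lists, moved there too. Body wall muscle at 123.8 FPKM and intestine at 118.8 FPKM were the lowest of 18, pharyngeal muscle was at 17.1 FPKM with 1 library lower, and germ line at 859.9 FPKM was the highest of 18. The part of cell content or library scaling in these levels was not tested.

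**Figure D2:**
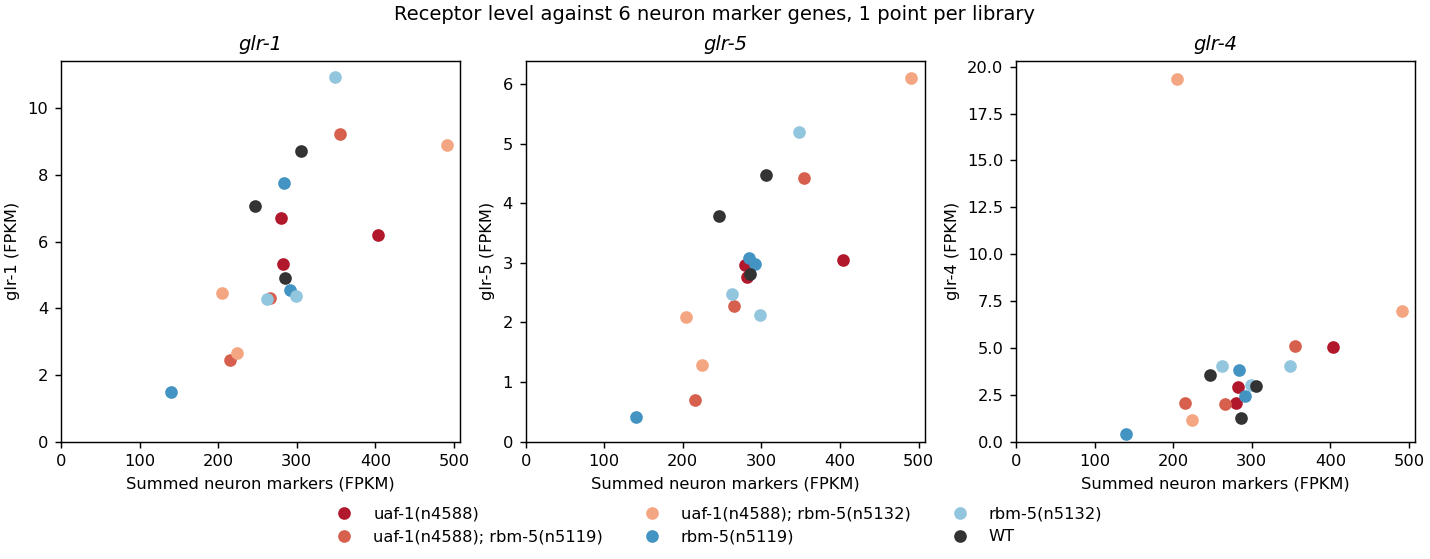
Level of glr-1, glr-5 and glr-4 (vertical axes, FPKM) against the summed FPKM of 6 neuron marker genes (horizontal axis), with 1 point per library and colours for strains. The points of glr-1 and glr-5 climb with the sum, and the single glr-4 value of 19.4 FPKM lies at a low marker sum of 204.4 FPKM.

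Among the splicing events of the receptor genes, a pair of glr-2 exons passed a test by uaf-1 genotype. The glr-2 gene lies on chromosome III at 7138640 to 7144959, minus strand (WBcel235). The exon pair is at 7142802 to 7142893 and 7142938 to 7143052, exons 8 and 9 of 20 in transcript B0280.12b.1, with lengths of 92 and 115 bases. Together they hold 207 coding bases, or 69 codons, so that leaving them out keeps the reading frame. The annotated transcript B0280.12a.1 lacks both.

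**Figure D3:**
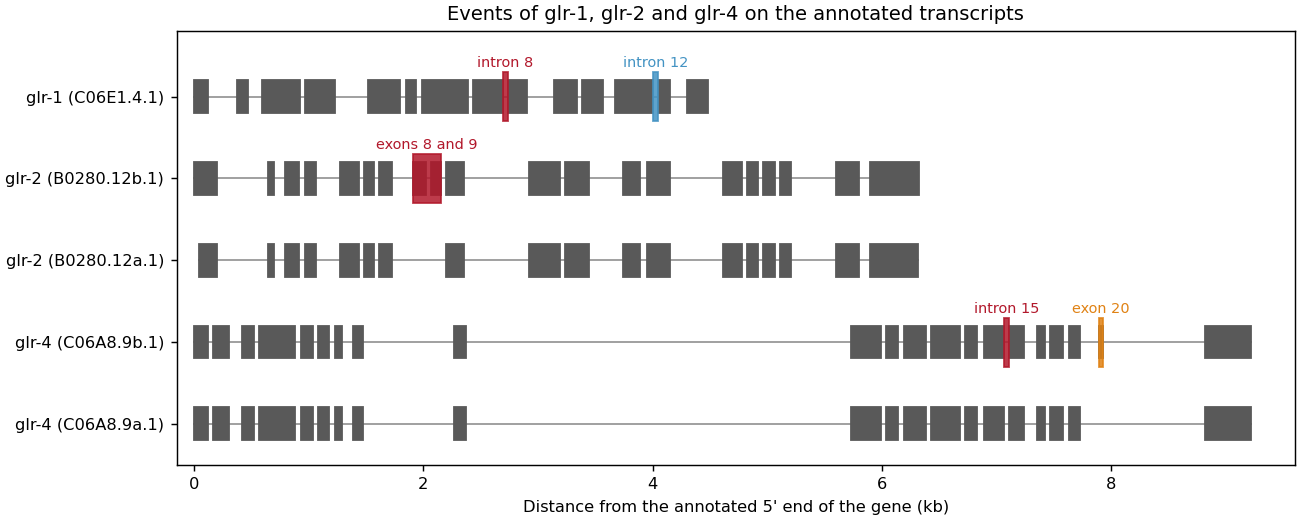
Annotated transcripts of glr-1, glr-2 and glr-4 (exons as boxes, introns as lines) by distance from the 5′ end of the gene in kilobases. Coloured boxes mark the glr-2 exon pair, retained intron 8 of glr-1 and intron 15 of glr-4, seen with uaf-1(n4588), intron 12 of glr-1, seen with n5119, and the optional exon 20 of glr-4.

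Matched by coordinates, the event was listed in all 18 libraries, in 11 of them under glr-2 alone. The share of FPKM with both exons was 0, 0 and 0.205 in uaf-1(n4588), 0.433, 0.345 and 0.185 in the n5119 double mutant, and 0.397, 0 and 0 in the n5132 double mutant. It was 1, 0.508 and 1 in rbm-5(n5119), 0.765, 1 and 1 in rbm-5(n5132), and 0.648, 0.775 and 0.697 in wild type. Some shares of 0 or 1 rest on a single form at a low level, in loci joined with sls-2.5. That form had 0.518 FPKM in rbm-5(n5119) replicate 3 and 0.927 FPKM in rbm-5(n5132) replicate 2. In replicates 2 and 3 of the n5132 double mutant it had 0.557 and 0.795 FPKM. Every library with uaf-1(n4588) lay below every library without it, the closest values being 0.433 and 0.508. Of 1868 events listed in all libraries, 0.642% separated this way, and the earlier analysis that led to these genes had already singled out this pair.

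The mean levels of both forms differed between the genotypes, but single libraries overlapped and neither level was tested by itself. The form with the exon pair averaged 0.369 ± 0.441 FPKM with uaf-1(n4588) and 2.04 ± 1.05 FPKM without it (SD, 9 libraries each). The form without the pair averaged 1.51 ± 0.793 FPKM with uaf-1(n4588) and 0.585 ± 0.604 FPKM without it. In uaf-1(n4588) the shorter form was the major one, at 2.77, 1.70 and 2.03 FPKM, and the longer form was listed at 0 in 2 libraries and at 0.525 FPKM in the third. In wild type the longer form was the major one, at 2.18, 1.63 and 3.02 FPKM beside 1.18, 0.471 and 1.31 FPKM of the shorter form. In uaf-1(n4588) replicate 3, retained intron 11 and the form lacking exon 4 (numbered by B0280.12a.1) also had 0.525 FPKM. Retained intron 9 was listed in 5 libraries. Its FPKM equalled that of the longer form in replicates 1 and 2 of the n5119 double mutant and 2 and 3 of rbm-5(n5119). In wild-type replicate 2 these values differed.

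The mean share was 0.174 ± 0.183 with uaf-1(n4588) and 0.822 ± 0.186 without it (SD, 9 libraries each), a difference of -0.65. The exact permutation test within rbm-5 backgrounds gave a two-sided p of 0.00025, the smallest that its 8000 rearrangements allow, and 0.018 after Benjamini-Hochberg adjustment over the 1868 events. In the 11 libraries whose locus named glr-2 alone the difference was -0.50 with an exact p of 0.01. On the log2 scale of the ratio of both forms, each with 1 FPKM added, limma gave -1.82 (SE 0.28, adjusted p = 0.00153) for uaf-1(n4588) averaged over backgrounds. This was the 1 receptor event that could be tested there, and 2.8% of 2532 events were called. With 0.1 FPKM added in place of 1 the value was -4.56 (adjusted p = 0.00176).

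Within single backgrounds the direction was the same, but no contrast passed. The log2 difference was -2.17 in uaf-1(n4588) against wild type (SE 0.48, adjusted p = 0.0746, with limma), where 0.427% of events were called. Without rbm-5(n5119) replicate 1 or replicate 2, libraries of neither strain, that adjusted p was 0.0138 or 0.0496. The difference was -1.43 in the n5119 double mutant against rbm-5(n5119) (SE 0.48, adjusted p = 0.374, with limma; 0.677% called) and -1.86 in the n5132 double mutant against rbm-5(n5132) (SE 0.48, adjusted p = 0.141; 0.323% called). Without rbm-5(n5119) replicate 1 the n5119 value was -0.85 (limma adjusted p = 0.738), and it reached -1.86 without replicate 2 of that strain. Taking the share itself as the response, the comparison of the n5132 double mutant with rbm-5(n5132) gave -0.79 with an adjusted p of 0.0162. Restricted to loci that name glr-2 alone, which is how the comparison was first planned, the first contrast gave -2.18 (SE 0.66, limma adjusted p = 0.36) and the second -1.58 (SE 0.66, adjusted p = 0.769), and the averaged contrast could not be fitted. With that matching 0.719%, 0.859% and 0.857% of events were called in the 3 contrasts within backgrounds and 3.51% in the averaged one.

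No effect of the rbm-5 mutations on the pair passed the test. Averaged over alleles and backgrounds, the log2 difference was 0.60 (SE 0.30, unadjusted p = 0.0626, limma adjusted p = 0.818), where 0.0395% of events were called. Against uaf-1(n4588), the n5119 double mutant differed by 0.91 (SE 0.48) and the n5132 double mutant by 0.83 (SE 0.48), with limma adjusted p of 0.994 and 0.936. The averaged interaction of both mutations was 0.53 (SE 0.60, limma adjusted p = 0.997). In these last 3 contrasts 0.0%, 0.0305% and 0.0% of all events were called. Against wild type the pair differed by 0.17 in rbm-5(n5119) and 0.51 in rbm-5(n5132) (SE 0.48 each, limma adjusted p = 0.998 and 1.0), where 0.0% of events were called. All of these estimates were above 0. They share libraries, and the averaged ones are built from the single contrasts, so their common sign is not repeated evidence.

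**Figure D4:**
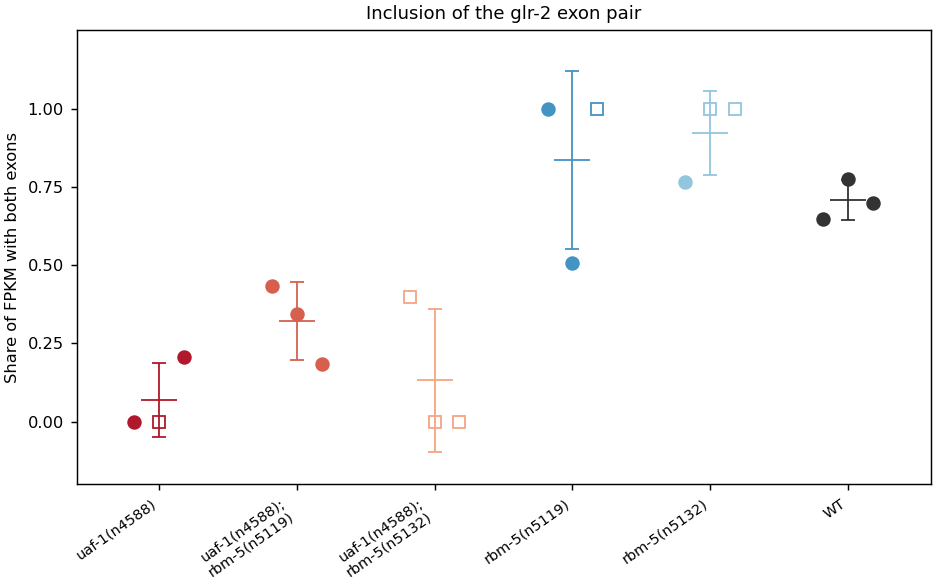
Share of FPKM that carries the glr-2 exon pair (vertical axis, 0 to 1) by strain, with 1 point per library and bars for the mean ± SD of 3 libraries. Filled circles mark loci named glr-2 alone, open squares loci named with sls-2.5, and all values with uaf-1(n4588) lie at or below 0.433 while all others lie at or above 0.508.

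A retained intron of glr-1 was listed in all 9 libraries with uaf-1(n4588) and in none of the other 9. The glr-1 gene lies on chromosome III at 8584163 to 8588642, minus strand, and the intron is intron 8 of its 14-exon transcript, at 8585902 to 8585950. It is 49 bases long, lies between coding exons and is not a multiple of 3, so a transcript that keeps it shifts its reading frame. The share of FPKM with the intron was 0.548, 0.652 and 0.686 in uaf-1(n4588), 0.329, 0.449 and 0.461 in the n5119 double mutant, and 0.640, 0.482 and 0.833 in the n5132 double mutant. The retained form thus had 0.804 to 5.69 FPKM. It was larger than the form spliced at the annotated acceptor in 5 of 9 libraries. Of 13320 retained introns in the series, 3 were listed in this way, or 0.0225%.

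How events enter the lists is not given in the sources used here, and some retained introns are listed with the other form at 0. Absence from a list was therefore not read as complete splicing. The level of glr-1 was similar in both sets, at 5.58 ± 2.43 FPKM with and 6.01 ± 2.86 FPKM without uaf-1(n4588) (SD, 9 libraries each). Libraries with uaf-1(n4588) listed 1834 to 2401 retained introns (median 2084), and those without it 1927 to 2322 (median 2032). The exact permutation of uaf-1 genotype within backgrounds, added after the listings had been seen, gave a two-sided p of 0.00025, its smallest possible value, but 0.376 after Benjamini-Hochberg adjustment over all 31622 events. The listing of this 1 event therefore did not pass the correction.

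Among strains with uaf-1(n4588) the retained share could be compared. It averaged 0.413 ± 0.0728 in the n5119 double mutant and 0.628 ± 0.0720 in uaf-1(n4588) (SD, n = 3 each). The limma log2 difference was -0.88 (SE 0.44, unadjusted p = 0.0829, adjusted p = 0.994), so the difference did not pass. In the n5132 double mutant the share averaged 0.652 ± 0.176 (SD, n = 3), with a log2 difference of 0.02 (SE 0.45, adjusted p = 0.997) from uaf-1(n4588). In replicate 3 of the n5119 double mutant and replicate 1 of the n5132 double mutant, exon 9, which follows this intron, was also listed with an acceptor 29 bases further downstream than annotated. The form spliced to that acceptor had 2.93 and 3.84 FPKM in these libraries. It is left out of the retained shares and means given here, which would be lower in both libraries with it.

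Intron 15 of the glr-4 gene was also listed as retained only with uaf-1(n4588), in fewer libraries and without passing the test. The gene lies on chromosome II at 7785100 to 7794322, minus strand, and the intron at 7787211 to 7787257 is 47 bases long, between coding exons and not a multiple of 3. Its retained form was listed in 7 of 9 libraries with uaf-1(n4588) and in none of the 9 without it. The share with the intron was 0.742, 0.330 and 0.329 in uaf-1(n4588), 0.485, 0.527 and 0.331 in the n5119 double mutant, and 0.701 in replicate 3 of the n5132 double mutant. In uaf-1(n4588) replicate 3 a form spliced to another acceptor, at 0.446 FPKM, is left out of the share. Of all retained introns, 12 were listed in at least 7 libraries with uaf-1(n4588) and none without, or 0.0901%. The two-sided exact p was 0.0025 and the adjusted p 1.0 over all events. Between the n5119 double mutant and uaf-1(n4588) the log2 difference was -0.12 (SE 0.63, limma adjusted p = 0.998).

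**Figure D5:**
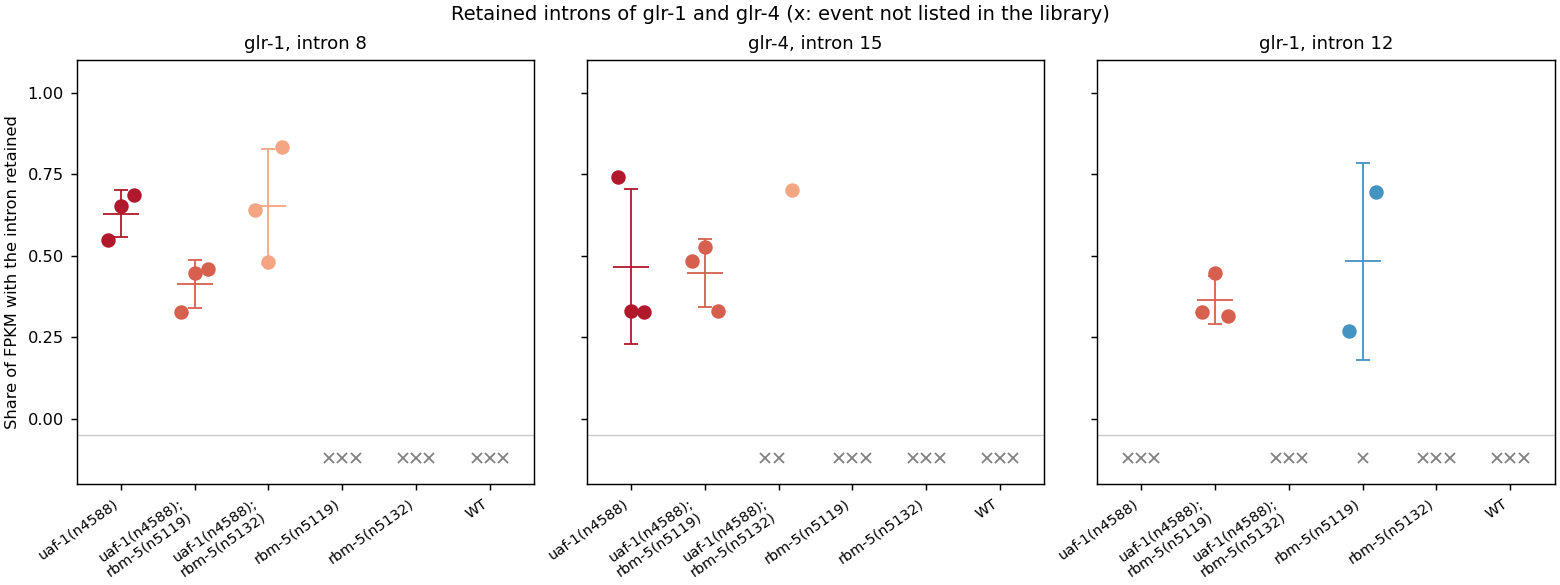
Share of FPKM with the intron retained (vertical axis, 0 to 1) for intron 8 of glr-1, intron 15 of glr-4 and intron 12 of glr-1 by strain, with 1 point per library, bars for the mean ± SD where 2 or 3 libraries list the event, and crosses below the line for libraries that do not list it. Intron 8 of glr-1 has points in all 9 libraries with uaf-1(n4588) and crosses in all 9 others, and intron 12 has points in 5 of the 6 libraries with n5119.

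Another glr-1 intron was listed only in libraries with the n5119 allele, a grouping picked from the listing itself and not tested. Intron 12, at 8584596 to 8584637 on chromosome III, is 42 bases or 14 codons long, between coding exons. Its retained form was listed in all 3 libraries of the n5119 double mutant, with shares of 0.329, 0.449 and 0.315, and in 2 libraries of rbm-5(n5119), with shares of 0.270 and 0.697. It was listed in none of the 12 libraries without n5119. Of all retained introns, 0.015% were listed in at least 5 of the 6 libraries with n5119 and in no other. In all 3 libraries of the n5119 double mutant the FPKM of the retained form was the same for introns 8 and 12, at 0.804, 1.93 and 2.91 FPKM. Between the n5119 double mutant and rbm-5(n5119) the log2 difference was -0.24 (SE 0.69, limma adjusted p = 0.999).

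The opposite listing reached 6 libraries only for glr-7. Its intron 5 of 47 bases, on chromosome X at 2416573 to 2416619, was listed as retained in 6 libraries without uaf-1(n4588) and in none with it. Those were all 3 rbm-5(n5119) libraries, replicates 2 and 3 of rbm-5(n5132) and wild-type replicate 3. In 5 of the 6 the locus did not name glr-7 alone, and the shares ran from 0.338 to 1. Of all retained introns, 0.0976% were listed in none of the libraries with uaf-1(n4588) and at least 6 without, and the exact p of 0.01 became 1.0 after adjustment. Intron 10 of glr-1 was listed as retained in 2 rbm-5(n5132) libraries and in no other. Some further receptor introns were listed in 1 library each, without uaf-1(n4588).

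Other events did not follow the genotypes. The optional exon 20 of glr-4, at 7786391 to 7786432, is 42 bases long with 19 coding bases and belongs to transcript C06A8.9b.1 but not C06A8.9a.1. It was listed in 13 libraries, with shares of 0.383 to 0.722 in 7 libraries with uaf-1(n4588) and 0.208 to 0.713 in 6 without it. Against wild type its log2 difference was 0.85 in uaf-1(n4588) (SE 0.60, limma adjusted p = 0.898), 0.51 in rbm-5(n5119) (SE 0.66) and 0.62 in rbm-5(n5132) (SE 0.65). Matched by gene, no receptor event was called in these 2 rbm-5 contrasts, where 0.132% and 0.042% of all events were called, nor in the n5132 double mutant against uaf-1(n4588) (0.0419%). With rbm-5 mutation averaged no receptor event could be tested by gene, and 0.119% of all events were called. Intron 5 of glr-6, 51 bases long and so a multiple of 3, was listed as retained in 7 libraries, 3 with and 4 without uaf-1(n4588), with shares of 0.484 to 0.591 and of 0.292 to 0.568.

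Most receptor events were listed under the gene's own name in a single library. Counted that way, 36 of the 56 events were listed once, or 64.3%, and 5 were listed in 6 or more libraries. Over all events 53.5% were listed once, but counted by coordinates under any label, so the shares cannot be compared. By coordinates some of the 36 were listed more often, such as the glr-7 intron in 6 libraries. The 56 events comprised 26 alternative exon ends, 25 retained introns, 3 single skipped exons, the glr-2 exon pair and 1 run of retained introns. All 9 genes had at least 1 retained intron. Of the 25, 21 were annotated introns, and the lengths ran from 42 to 456 bases with a median of 57.0. The alternative exon ends formed 9 acceptor pairs, 10 to 402 bases apart, and 5 donor pairs, 21 to 208 bases apart. Of the 26 alternative exon ends, 16 were listed only with uaf-1(n4588) and 7 only without it, beside 37.3% and 30.0% of the 10685 alternative ends in the series. Only the glr-1 acceptor, 1 glr-2 donor, 1 glr-4 donor and 1 glr-6 donor were listed in more than 1 library, so these counts were not tested.

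Genes that act with the receptors were read from lists. No member of any list was called in any of the 10 contrasts, and the values here are for uaf-1(n4588) averaged over backgrounds. Of the auxiliary subunits 2 of 6 could be tested (lowest limma adjusted p = 0.931, median log2 difference -0.17). The AMPA receptor partners cni-1 and sol-1 averaged 631 ± 175 FPKM (SD, n = 10 libraries) and 8.05 ± 4.02 FPKM (SD, n = 16 libraries). Of the trafficking genes 5 of 7 could be tested (lowest limma adjusted p = 0.982, median -0.09), and usp-46, a deubiquitinase that acts on GLR-1, averaged 68.8 ± 24.3 FPKM (SD, n = 16). The small GTPase gene rab-10 was listed alone in 1 library.

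Of the genes of glutamate release and uptake 6 of 7 could be tested (lowest limma adjusted p = 0.962, median 0.14). The transporter gene glt-3 averaged 9.73 ± 12.9 FPKM (SD, n = 18) and the vesicular transporter gene eat-4 3.40 ± 2.31 FPKM (SD, n = 16). Of the glutamate-gated chloride channel genes 4 of 6 could be tested (lowest limma adjusted p = 0.75, median -0.44), and avr-14 and glc-4 averaged 10.02 ± 4.54 FPKM and 9.32 ± 4.59 FPKM (SD, n = 18 each). Of the metabotropic receptor genes 1 of 3 could be tested (limma adjusted p = 0.931, log2 difference -0.32), with mgl-2 at 2.37 ± 1.30 FPKM (SD, n = 17) and mgl-1 at 1.28 ± 1.22 FPKM (SD, n = 8). Of the transcription factors of command interneurons 2 of 4 could be tested (lowest limma adjusted p = 0.615, median 0.08). The homeobox gene unc-42, which controls glr-1 in those neurons, averaged 35.5 ± 14.5 FPKM, and unc-3 averaged 16.5 ± 38.7 FPKM (SD, n = 18 each). Matched by gene, no splicing event of a listed gene was called in any contrast where any could be tested. With uaf-1(n4588) averaged, no event of the auxiliary subunit, glutamate release and uptake or chloride channel genes could be tested this way.

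Markers of cell types were read the same way. Of the neuron markers 6 of 12 could be tested in that contrast and none was called (lowest limma adjusted p = 0.806). None was called among 3 of 5 body wall muscle, 3 of 4 pharyngeal muscle, 3 of 5 epidermis and 5 of 5 germ line markers. Against wild type all 5 germ line markers were above 0 in each single mutant, and none was called. Their median log2 differences were 0.85 in uaf-1(n4588), 0.61 in rbm-5(n5119) and 0.89 in rbm-5(n5132). Wild-type germ line sums ran from 93.5 to 554 FPKM. Whether the embryos differed in content was not tested. The adult yolk and sperm markers were too low to test. Of 4 intestine markers that could be tested 1 was lower with uaf-1(n4588), the gut esterase gene ges-1 (log2 difference -1.09, SE 0.23, limma adjusted p = 0.0488), named here because of its value. In that contrast 0.656% of all genes were called. The median of the 4 was -0.24, with 1 of them above 0.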

How the data were processed

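Embryo RNA of 18 libraries was analysed. The submitters' processing notes name the build WBcel235 and the tools TopHat2 (version 2.0.12) and Bowtie2, and the assembler and event caller are not given in the sources used here. The deposited values are FPKM per event and library, per the file headers. A gene's level was the summed FPKM of its transcript starts. Events were matched by type, gene and coordinates, and, after the data had been seen, also by coordinates alone. A share is the FPKM with the exon or intron over that of both forms. Intron and exon positions came from Ensembl annotation release 115.

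Levels as log2(FPKM + 1) and splicing as log2 of the ratio of both forms, each with 1 FPKM added, were fitted with limma 3.58.1 (R 4.3.3) in all genes or events, with 1 mean per strain, in 10 contrasts, and adjusted by Benjamini-Hochberg within each contrast. Tests were two-sided. Features needed 2 libraries per strain and a mean of 1 FPKM. Exact permutations were run in Python 3.11.15. Fits were tested on simulated data. The members and lists were chosen with earlier results of these data known. All 9 genes and their events are named by rule, other genes only by list (up to 2 of highest mean) or by likeness to glr-1. Alternatives changed the pseudocount, filter, scaling, libraries and block.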

Additional observations from a re-analysis of the deposited data

How the results depend on the processing

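No receptor gene was called in any of 260 alternative fits over 10 contrasts, and no receptor event matched by gene in any of 147 where 1 could be tested. The glr-2 exon pair, averaged over backgrounds, kept its direction and stayed past the threshold in all 26 alternatives, from -1.96 to -1.62 on the log2 scale when single libraries were left out. The share difference ran from -0.69 to -0.63 in the same way and was -0.71 with replicates 2 and 3 only and -0.66 without the 2 libraries that stood apart. Receptor events called by coordinates moved in 3 of 260 fits: from 0 to 1 on leaving out a library in uaf-1(n4588) against wild type, and to 1 with the share as response in the n5132 double mutant against rbm-5(n5132); the cause was not tested. The glr-1 and glr-5 differences turned positive, at 0.21 and 0.0934, with replicates 2 and 3 only, and ran from -0.23 to 0.0774 and from -0.25 to 0.0625 over single libraries left out. Over the whole table, calls for averaged uaf-1(n4588) were 47 genes, 24 to 50 with single libraries left out (24 without replicate 2 of the n5119 double mutant), 30 with replicates 2 and 3 only and 74 after scaling.

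The replicate numbers were not taken to pair the libraries, since 21 of 45 same-numbered pairs had a correlation over 0.1. Even so, the median correlation was 0.091 for same-numbered pairs and -0.034 for others, and 15 of 18 libraries were on average closer to their own number, a hint from the data and not the design. With the replicate number as a block the averaged glr-2 value stayed at -1.82 (limma adjusted p = 0.00375) and no receptor call changed. Unknown depth limits the low genes glr-3, nmr-1 and nmr-2, and 2 or 3 libraries per strain limit single contrasts.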
